A study of Mus musculus with 6 samples.

Results

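Colony stimulating factors are secreted proteins that keep myeloid cells alive and drive their production, and the genes for these factors and for chains of their receptors were examined in lungs of endotoxaemic mice. The 7 genes were 4 ligands (Csf1, Csf2, Csf3 and Il34) and 3 receptor chains (Csf1r, Csf2ra and Il3ra). They were chosen by name, through the transcript accession that each array probe carries, out of 22911 genes with a matched probe, and where a gene had several probes the one with the highest mean signal over the 6 arrays was taken. The 7 genes carried 12 probes in all. Each of the 7 chosen probes was well above background on all 6 arrays, so all 7 were among the 16370 genes tested.

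All mice were male C57BL6 mice aged 10 weeks that were starved for 16 h and then given lipopolysaccharide (LPS, a component of the Gram-negative bacterial wall) intraperitoneally at 20 mg/kg. The 3 control mice then received saline, and the other 3 received rhTM, a recombinant form of human thrombomodulin, which is an endothelial protein that curbs clotting and inflammation, in both cases 3 and 24 h after LPS. Whole lung was taken 30 h after LPS, and its RNA was hybridised to single-colour Agilent mouse expression arrays, 1 array per mouse. The comparison asks how lung transcripts of rhTM-treated mice differed from those of saline-treated mice. No array of mice without LPS was analysed here, so every value describes an LPS-treated lung. Whole lung holds epithelium, endothelium, fibroblasts, resident and recruited leukocytes and blood. Markers of lung epithelium and endothelium were present, with 7 of 7 alveolar type II markers, 4 of 4 alveolar type I markers with a probe (Rtkn2 had none), 5 of 5 club and ciliated markers and 8 of 8 endothelial markers above background on all 6 arrays.

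CSF-1 (macrophage colony stimulating factor) and IL-34 bind the same receptor tyrosine kinase, CSF-1R, and sustain monocytes and tissue macrophages. GM-CSF, the product of Csf2, binds CSF2RA together with the shared beta chain CSF2RB, signals through JAK2 and STAT5, and is known in lung for the maturation of alveolar macrophages. G-CSF, the product of Csf3, acts through CSF3R and STAT3 to release and expand neutrophils, and IL-3 uses IL3RA with a beta chain of the same family.

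Before the values, a limit of the deposit has to be given. The value table that the authors deposited and the scanner output of the same arrays assigned 2 arrays differently. The values under saline replicate 1 in the table were those scanned as rhTM replicate 2, and the reverse, with over 99.9% of probes equal within 0.1% to the exchanged array, whereas the other 4 columns matched their own arrays. The labels and the methods do not settle which assignment is right. Replicate numbers below follow the scanner output, and the comparison of each of the 7 genes is given under both assignments. The array scanned as saline replicate 1 also had a spike-in slope of 0.826, against 1.07 to 1.09 on the other 5, and shared its slide with rhTM replicate 3. A further array, rhTM replicate 1, stood apart in many genes. It held the lowest or the highest value of the 6 arrays for 56.4% of the 16370 genes, whereas the other 5 arrays did so for 17.0% to 35.1% of them.

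Promoter sequences are shown for Csf1 and Csf2, whose signals were high and low on the same arrays, and for Csf2ra, whose signal varied little. They run from 250 bases before to 50 bases after the annotated start, 5′ to 3′ on the strand of the gene, as given by RefSeq for GRCm38.p6. Windows of 4 of the 7 genes were searched (Csf1, Csf2, Csf2ra and Il3ra), and no window of Csf1r, Csf3 or Il34 was searched. Capitals mark matches, on either strand, to a kappaB motif (GGGANNNNCC), the motif class bound by NF-kappaB, to a cyclic AMP response element (TGACGTCA) or to a PU.1 motif (GAGGAAG). The windows are chr3:107760420-107760719 (minus strand) for Csf1, chr11:54249850-54250149 (minus strand) for Csf2 and chr19:61228369-61228668 (minus strand) for Csf2ra.
Csf1: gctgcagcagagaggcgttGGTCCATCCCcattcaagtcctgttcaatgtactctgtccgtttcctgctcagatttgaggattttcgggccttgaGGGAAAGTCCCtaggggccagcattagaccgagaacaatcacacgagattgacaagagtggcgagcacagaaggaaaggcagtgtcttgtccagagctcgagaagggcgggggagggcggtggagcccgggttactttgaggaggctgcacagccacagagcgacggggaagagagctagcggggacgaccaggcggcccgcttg
Csf2: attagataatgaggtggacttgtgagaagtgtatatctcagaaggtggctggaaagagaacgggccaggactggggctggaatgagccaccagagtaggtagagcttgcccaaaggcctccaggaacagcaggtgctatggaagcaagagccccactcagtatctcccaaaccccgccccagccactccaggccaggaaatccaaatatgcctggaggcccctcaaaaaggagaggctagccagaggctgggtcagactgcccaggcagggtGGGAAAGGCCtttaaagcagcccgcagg
Csf2ra: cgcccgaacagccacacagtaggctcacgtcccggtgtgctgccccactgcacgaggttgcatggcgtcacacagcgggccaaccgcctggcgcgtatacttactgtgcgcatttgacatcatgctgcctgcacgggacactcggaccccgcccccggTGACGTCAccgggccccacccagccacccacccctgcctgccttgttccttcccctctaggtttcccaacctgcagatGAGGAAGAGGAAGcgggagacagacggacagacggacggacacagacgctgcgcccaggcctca
The Csf1 window held 3 kappaB matches, of which 2 overlapped by all but a single base. The Csf2 window held 1 kappaB match, and neither the Csf2ra window nor the Il3ra window held any. A kappaB match was present in 20.7% of the 32851 promoter windows of the genome. The Csf2ra window held 1 cyclic AMP response element, a motif present in 1.79% of all windows, and 2 overlapping PU.1 matches, a motif present in 13.6%. An AP-1 motif (TGANTCA), present in 7.81% of all windows, had no match in the 4 windows. These matches are matches of letters, and binding was not measured.

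None of the 7 genes passed the threshold between rhTM-treated and saline-treated mice after adjustment over all genes, under either assignment. The ligand genes Csf1, Csf2 and Csf3 varied most. Csf1 and Csf2 had their lowest signal, and Csf3 its highest, on the same array, rhTM replicate 1, while the receptor chains Csf2ra and Il3ra stayed within 1.29-fold and 1.15-fold over all 6 arrays on their chosen probes. By the scanner output 0% of all 16370 genes passed an adjusted p of 0.05 in limma, and 0 of the 7 did. At an unadjusted p under 0.05, 0 of the 7 were higher and 0 lower, where 0.696% and 1.17% of all genes were. In 0 of the 7 did every rhTM array lie above, and in 0 below, every saline array, where 2.95% and 2.57% of all genes did so. By the table of the authors, 0 of the 7 passed the adjusted threshold, as did 0% of its 16320 genes. There, 1 of the 7 (Csf3) was higher and 0 were lower at an unadjusted p under 0.05, where 6.95% and 7.01% of all genes were, and 1 of the 7 (Csf3 again) lay above without overlap and 0 below, where 9.68% and 12% of all genes did so. At an unadjusted p under 0.05 the scanner output held 306 genes, against 2279 by the table. In whole lung, fewer cells of a type and less RNA per cell cannot be told apart.

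**Figure D1:**
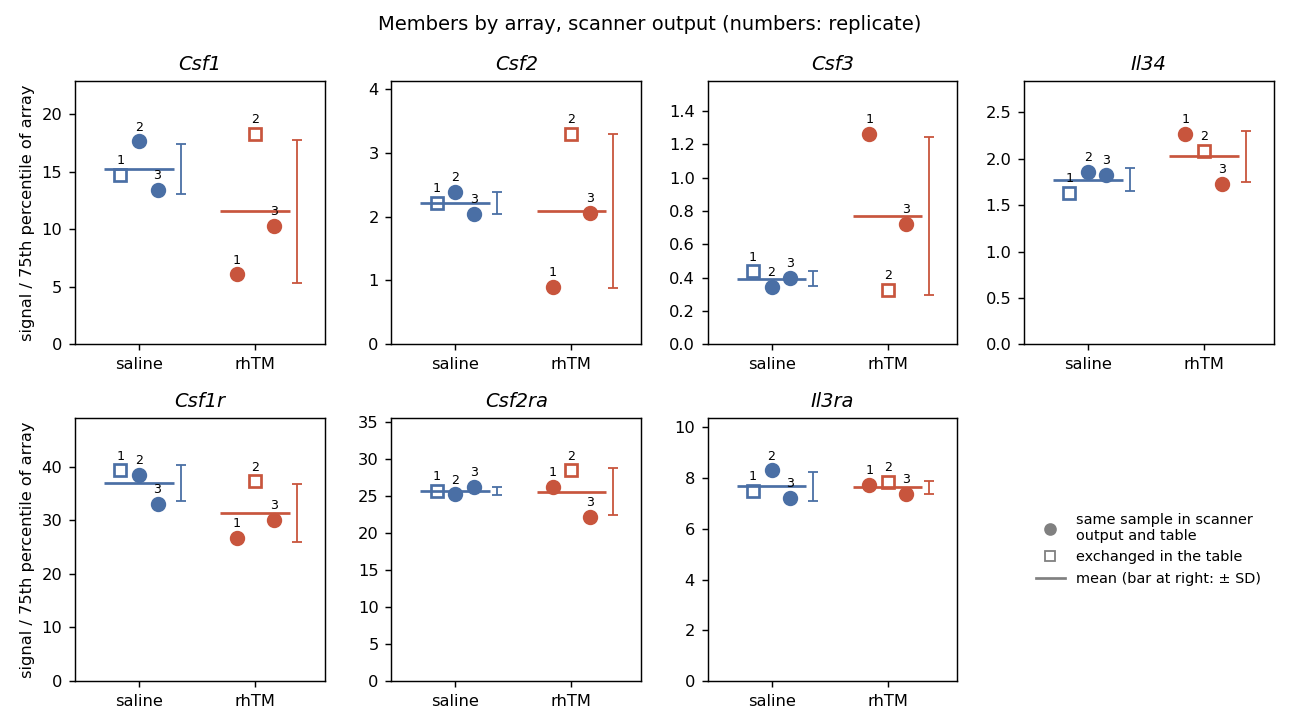
Signal of the 7 genes on each array by the scanner output, in multiples of the 75th percentile of that array (y axes start at 0), for saline-treated mice (blue) and rhTM-treated mice (red). Numbers are replicates, lines are means of 3 arrays, bars at the right are ± SD, and open squares are the 2 arrays that the authors' table exchanges. For Csf1, Csf2 and Csf3 the 3 rhTM arrays spread over and beyond the saline arrays, as with Csf3 from 0.324 to 1.26 against 0.345 to 0.437.

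Among the ligands, Csf1 encodes the main growth factor of macrophages. Its signal, in multiples of each array's 75th percentile (the scale of all levels given here), was 14.7, 17.6 and 13.4 in saline-treated mice 1, 2 and 3. In rhTM-treated mice 1, 2 and 3 it was 6.06, 18.3 and 10.3. The rhTM group thus held both the lowest and the highest array, rhTM replicates 1 and 3 were below every saline array and rhTM replicate 2 above, so the groups overlapped. The means were 15.3 ± 2.15 (SD, n = 3) with saline and 11.6 ± 6.22 (SD, n = 3) with rhTM. The log2 fold change of rhTM over saline was -0.54 ± 0.38 (SE), with a 95% interval from -1.44 to 0.37 and an adjusted p of 0.9999 by limma, and an exact two-sided permutation test gave p = 0.4, where the smallest p that 3 against 3 arrays allow is 0.1. By the authors' table, which puts the highest array among the saline arrays, the log2 fold change was -0.75 ± 0.32 (SE; adjusted p = 0.367 by limma), and the groups still overlapped. The 2 other Csf1 probes gave log2 fold changes of -0.41 and -0.48 (scanner output) and -0.39 and -0.33 (table), and on both of them rhTM replicate 1 was again the lowest array. Without rhTM replicate 1 the log2 fold change of Csf1 was -0.14 ± 0.27 (SE), or -0.40 ± 0.21 (SE) by the table, and without rhTM replicate 2 it was -0.94 ± 0.26 (SE; adjusted p = 0.540 by limma).

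Csf2 encodes GM-CSF. Its signal was 2.22, 2.39 and 2.04 in saline-treated mice 1, 2 and 3. It was 0.901, 3.30 and 2.07 in rhTM-treated mice 1, 2 and 3. The saline arrays lay close together, and the rhTM arrays fell on both sides of them, with rhTM replicate 1 the lowest and rhTM replicate 2 the highest of the 6. Its log2 fold change was -0.27 ± 0.44 (SE), with a 95% interval from -1.31 to 0.77 (adjusted p = 0.9999 by limma, exact two-sided permutation p = 0.8). By the table it was -0.65 ± 0.37 (SE; adjusted p = 0.454 by limma). Without rhTM replicate 1 the scanner output gave 0.24 ± 0.22 (SE), a turn of sign, and the table gave -0.24 ± 0.21 (SE), with the sign kept.

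Csf3 encodes G-CSF, the growth factor of neutrophils, and ran opposite to Csf1 and Csf2 over the arrays. Its signal was 0.437, 0.345 and 0.398 in saline-treated mice 1, 2 and 3. It was 1.26, 0.324 and 0.721 in rhTM-treated mice 1, 2 and 3. In rhTM replicates 1 and 3 it was above every saline array, and in rhTM replicate 2 it was the lowest of all 6. The mean was 0.770 ± 0.472 (SD, n = 3) with rhTM and 0.394 ± 0.0462 (SD, n = 3) with saline, and the fold from the mean log2 values was 1.70. On the log2 scale the difference was 0.77 ± 0.46 (SE), with a 95% interval from -0.32 to 1.85 (adjusted p = 0.9999 by limma, exact two-sided permutation p = 0.4). By the table, which exchanges rhTM replicate 2 with saline replicate 1, the rhTM arrays were all above the highest saline array. There it was 1.05 ± 0.36 (SE; adjusted p = 0.321 by limma, exact two-sided permutation p = 0.1, the smallest possible). Leaving out both exchanged arrays, the log2 fold change was 1.36 ± 0.31 (SE; adjusted p = 0.665 by limma), and leaving out rhTM replicate 1 from all 6 it was 0.30 ± 0.34 (SE), or 0.66 ± 0.23 (SE) by the table. Blocking on slide, the table gave 1.84 ± 0.29 (SE; adjusted p = 0.0439 by limma), a fit in which only rhTM replicate 1 is set against saline arrays, because under the table the other rhTM arrays make up all of the other slide. That fit gave -1.43 ± 0.26 (SE; adjusted p = 0.0532 by limma) for Csf1 and -1.49 ± 0.27 (SE; adjusted p = 0.0526 by limma) for Csf2, and without both exchanged arrays these genes gave -0.96 ± 0.31 (SE) and -0.69 ± 0.42 (SE).

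Il34, the second ligand of CSF-1R, varied less. Its signal was 1.63, 1.86 and 1.83 in saline-treated mice 1, 2 and 3. It was 2.27, 2.08 and 1.73 in rhTM-treated mice 1, 2 and 3. The highest 2 arrays were of rhTM-treated mice, but rhTM replicate 3 lay within the saline arrays. Its log2 fold change was 0.19 ± 0.14 (SE; adjusted p = 0.9999 by limma, exact two-sided permutation p = 0.3), and by the table it was -0.05 ± 0.15 (SE), so that its sign turned with the assignment. The dimmer second probe of Il34 gave log2 fold changes of -0.0027 (scanner output) and -0.11 (table).

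**Figure D2:**
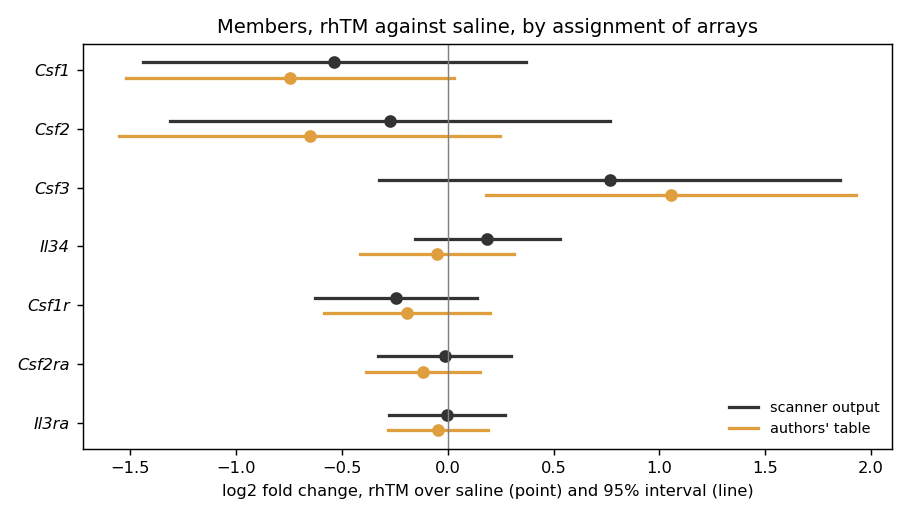
Log2 fold change of rhTM over saline (points) with 95% intervals (lines) for the 7 genes, by the scanner output (black) and by the authors' table (yellow). Every interval includes 0 except that of Csf3 by the table, from 0.18 to 1.93, and Il34 is the gene whose point lies on opposite sides of 0.

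Of the receptor chains, Csf1r encodes the kinase that CSF-1 and IL-34 share and is carried by monocytes and macrophages. Its signal was 39.4, 38.5 and 33.1 in saline-treated mice 1, 2 and 3. It was 26.7, 37.3 and 30.2 in rhTM-treated mice 1, 2 and 3. As with Csf1, rhTM replicate 1 was the lowest array and rhTM replicate 3 the next, whereas rhTM replicate 2 lay within the saline arrays. Its log2 fold change was -0.25 ± 0.16 (SE), with a 95% interval from -0.63 to 0.14 (adjusted p = 0.9999 by limma, exact two-sided permutation p = 0.2). By the table it was -0.19 ± 0.16 (SE; adjusted p = 0.599 by limma). Without rhTM replicate 1 these values became -0.14 ± 0.16 (SE) and -0.07 ± 0.14 (SE). The second, much dimmer Csf1r probe gave log2 fold changes of -0.18 (scanner output) and 0.08 (table), so the 2 probes differed in sign under the table.

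Csf2ra encodes the ligand-specific chain of the GM-CSF receptor. Its signal was 25.7, 25.3 and 26.3 in saline-treated mice 1, 2 and 3, and 26.2, 28.5 and 22.2 in rhTM-treated mice 1, 2 and 3. The rhTM arrays lay on both sides of the saline arrays. The log2 fold change was -0.01 ± 0.13 (SE), and the 95% interval as a fold ran from 0.796 to 1.23. By the table it was -0.11 ± 0.11 (SE; adjusted p = 0.649 by limma).

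Il3ra encodes the ligand-specific chain of the IL-3 receptor and varied least of the 7 genes on its chosen probe. Its signal was 7.51, 8.31 and 7.21 in saline-treated mice 1, 2 and 3, and 7.73, 7.84 and 7.36 in rhTM-treated mice 1, 2 and 3. All rhTM arrays lay within the saline range. The log2 fold change was -0.0038 ± 0.12 (SE), and the 95% interval as a fold ran from 0.825 to 1.21, so a change of larger size lies outside the interval. By the table it was -0.05 ± 0.10 (SE; adjusted p = 0.847 by limma). The dimmer second Il3ra probe ran from 0.626 on rhTM replicate 1 to 0.859 on saline replicate 2, with log2 fold changes of -0.16 (scanner output) and -0.04 (table).

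The spread within groups differed widely among the 7 genes. The residual SD of Csf1, Csf2 and Csf3 was 0.58, 0.68 and 0.71 on the log2 scale, at the 93.6th, 95.9th and 96.5th percentile of all 16370 genes tested. That of Il34, Csf1r, Csf2ra and Il3ra was 0.16, 0.20, 0.13 and 0.08, against a median over all genes of 0.21. The highest array exceeded the lowest 3.91-fold for Csf3, 3.67-fold for Csf2, 3.02-fold for Csf1, 1.47-fold for Csf1r and 1.39-fold for Il34. For 5 of the 7 genes rhTM replicate 1 was the lowest (Csf1, Csf2, Csf1r) or the highest (Csf3, Il34) array, where this was so for 56.4% of all genes. On that array Csf1 was 0.412 times, Csf2 0.406 times and Csf3 3.17 times the median of the saline arrays.

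**Figure D3:**
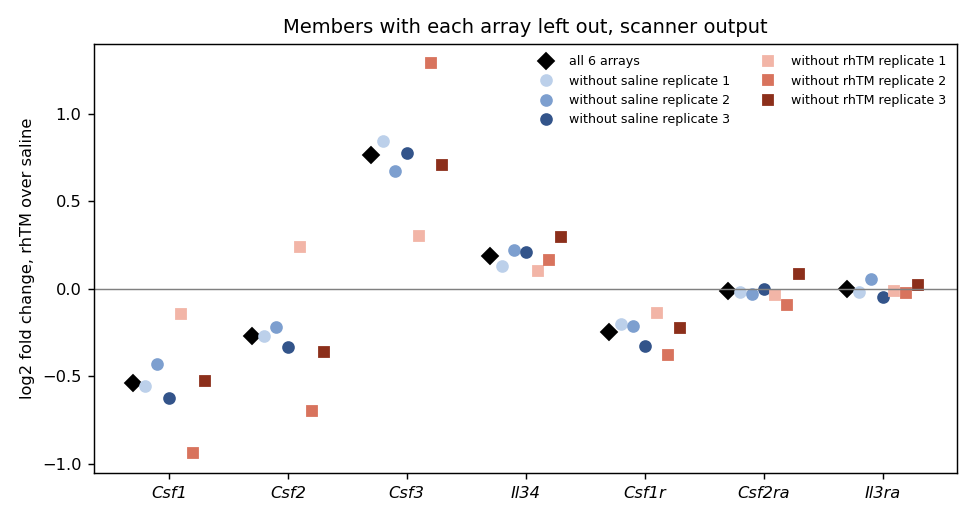
Log2 fold change of rhTM over saline for the 7 genes by the scanner output, with all 6 arrays (diamonds) and with each saline array (blue circles) or rhTM array (red squares) left out. Without rhTM replicate 1 Csf1 moves from -0.54 to -0.14, Csf2 from -0.27 to 0.24 and Csf3 from 0.77 to 0.30, and without rhTM replicate 2 they move the other way, to -0.94, -0.70 and 1.29.

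Over the 6 arrays without regard to group, which makes the exchange of 2 arrays irrelevant, Csf1 and Csf2 went together and Csf3 went opposite to both. Of the 21 pairs among the 7 genes, 3 had an adjusted permutation p under 0.05 for Pearson's r (exact, two-sided). For Csf1 and Csf2, r was 0.94 (exact permutation p = 0.0028, adjusted 0.0437) and Spearman's rho was 0.94 (exact permutation p = 0.0167, adjusted 0.175). For Csf1 and Csf3, r was -0.99 (exact permutation p = 0.0042, adjusted 0.0437) and rho was -0.94 (exact permutation p = 0.0167, adjusted 0.175). For Csf2 and Csf3, r was -0.91 (exact permutation p = 0.0069, adjusted 0.0486) and rho was -0.83 (exact permutation p = 0.0583, adjusted 0.408). No pair passed by Spearman's rho after adjustment. Over all 133980265 pairs of the genes tested, 1.52%, 0.117% and 3.52% had an r at least as far from 0 as these 3 pairs in turn, and nothing particular to the 7 genes is read from them. Leaving out the 2 arrays farthest from the median of the first gene gave r of 0.84, -0.85 and -0.60 over the other 4 arrays. Csf1r had r of 0.93 with Csf1 (exact permutation p = 0.0111, adjusted 0.0583) and -0.90 with Csf3 (exact permutation p = 0.0167, adjusted 0.07), which became 0.56 and -0.05 without the 2 farthest arrays, so the relation of Csf1r to Csf3 rested on those arrays. The arrays share 1 platform, and rhTM replicate 1 lay at an end of each of these relations.

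Other ligands of the same receptor classes gave the following values. Kitl encodes stem cell factor, the ligand of the receptor KIT. Its signal was 2.41, 2.86 and 2.69 in saline-treated mice and 1.54, 3.38 and 2.07 in rhTM-treated mice, with rhTM replicate 1 lowest and rhTM replicate 2 highest, as for Csf2. Its log2 fold change was -0.26 ± 0.28 (SE) by the scanner output. By the table it was -0.58 ± 0.19 (SE; adjusted p = 0.316 by limma), with the rhTM arrays all below the lowest saline array. Without rhTM replicate 1 the values for Kitl were -0.00028 (scanner output) and -0.41 (table). Flt3l, the growth factor of dendritic cell precursors, gave -0.21 ± 0.28 (SE) and -0.50 ± 0.22 (SE), again with rhTM replicate 1 lowest and rhTM replicate 2 highest. Il3 was dim, above background on 3 of 3 saline arrays and 2 of 3 rhTM arrays, with log2 fold changes of -0.13 ± 0.18 (SE) and 0.007 ± 0.18 (SE). The Il5 probe was well above background on no array and was not tested.

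**Figure D4:**
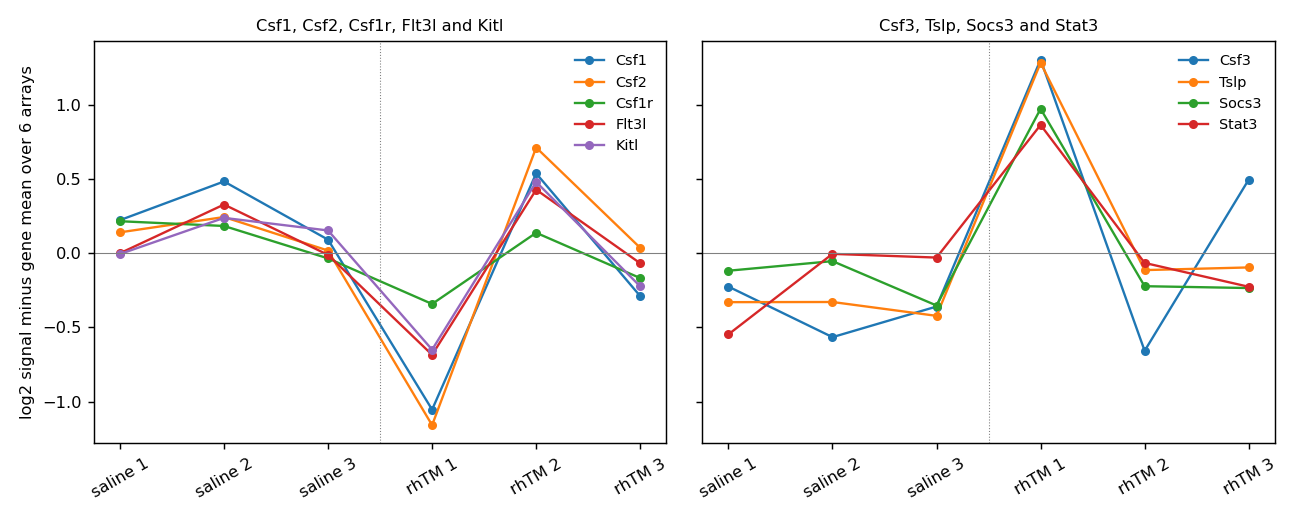
Log2 signal minus the mean of each gene over the 6 arrays, by array of the scanner output, for genes lowest on rhTM replicate 1 (left) and genes highest on it (right), with a dotted line between the groups. Lines join the values of a gene and stand for no order, and the genes shown on the right include Csf3, at 1.26 on rhTM replicate 1 and 0.324 on rhTM replicate 2 in multiples of the 75th percentile.

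Among the other receptors, Csf3r, the G-CSF receptor of neutrophils, lay between 110.9 and 120.0 in saline-treated mice and between 110.1 and 125.4 in rhTM-treated mice. Its log2 fold change was 0.05 ± 0.11 (SE), and -0.02 ± 0.10 (SE) by the table, so the G-CSF ligand and receptor genes differed in spread, with a highest array 1.14 times the lowest for Csf3r. Csf2rb, the beta chain shared by the GM-CSF, IL-3 and IL-5 receptors, gave -0.06 ± 0.17 (SE) by the scanner output. By the table it gave -0.29 ± 0.11 (SE; adjusted p = 0.342 by limma), again with no overlap of the groups. Its mouse paralogue Csf2rb2, a beta chain particular to IL-3, gave 0.0091 ± 0.12 (SE) and -0.0032 ± 0.10 (SE), and as the 2 genes are near-identical in sequence, cross-hybridisation between their probes was not tested. Kit, the receptor of stem cell factor, was 4.88, 5.27 and 5.87 in saline-treated mice and 6.67, 6.06 and 6.34 in rhTM-treated mice. By the scanner output Kit was higher on each rhTM array than on any saline array, with a log2 fold change of 0.25 ± 0.12 (SE; adjusted p = 0.9999 by limma, exact two-sided permutation p = 0.1, the smallest possible), but the groups overlapped by the table, with 0.05 ± 0.15 (SE). Ptprz1, a receptor phosphatase that IL-34 also binds, gave 0.35 ± 0.46 (SE) and 0.60 ± 0.43 (SE) under the respective assignments, Il5ra gave 0.16 ± 0.18 (SE) and 0.31 ± 0.14 (SE), and Flt3 gave -0.03 ± 0.16 (SE) and 0.10 ± 0.15 (SE).

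Downstream and upstream genes were counted by list, with 0 of each list passing the adjusted threshold under either assignment. Of 18 genes of the signalling relay (kinases, STATs, adaptors and phosphatases) 10 were higher and 8 lower with rhTM by the scanner output, with a median log2 fold change of 0.03, against 0.0026 over all genes tested. Of 9 feedback and target genes 6 were higher and 3 lower (median 0.16), and of 11 myeloid transcription factors 6 were higher and 5 lower (median 0.04). Of 6 cytokines that induce these ligands and were tested 4 were higher and 2 lower (median 0.07), and the probes for Il17a and Il17f were not well above background on any array. With the other assignment 12, 7, 8 and 5 genes of these lists were higher and 6, 2, 3 and 1 lower, and the medians were 0.05, 0.06, 0.23 and 0.36, against -0.02 over all genes. Of the myeloid transcription factors 3 were then higher and 2 lower at an unadjusted p under 0.05 by limma, where 6.95% and 7.01% of all genes were, and 0 by the scanner output.

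The gene with the largest difference in each of these lists by the scanner output was examined further. Stat3, which carries the G-CSF signal, was 11.4, 16.6 and 16.4 in saline-treated mice and 30.4, 16.0 and 14.3 in rhTM-treated mice. Socs3, the feedback inhibitor of the G-CSF receptor, was 25.1, 26.3 and 21.3 in saline-treated mice and 53.6, 23.4 and 23.2 in rhTM-treated mice. Tslp, an epithelial cytokine, was 0.244, 0.244 and 0.229 in saline-treated mice and 0.747, 0.283 and 0.287 in rhTM-treated mice. For these genes, picked for their difference, the highest array was rhTM replicate 1, as for Csf3 and for 29.8% of all genes. By the scanner output Tslp was higher on each rhTM array than on any saline array, but its groups overlapped by the table. The log2 fold changes were 0.39 ± 0.31 (SE) for Stat3, 0.35 ± 0.33 (SE) for Socs3 and 0.72 ± 0.37 (SE) for Tslp, and they were 0.06 ± 0.35 (SE), 0.42 ± 0.32 (SE) and 0.57 ± 0.41 (SE) by the table. Without rhTM replicate 1 they were 0.05, -0.05 and 0.26 (scanner output) and -0.35, 0.03 and 0.08 (table). In the fit of the table that blocks on slide, and so sets rhTM replicate 1 alone against saline, they became 0.90, 1.18 and 1.57 (adjusted p = 0.0488, 0.0378 and 0.0322 by limma). Spi1, which encodes PU.1 and governs Csf1r, gave -0.30 ± 0.21 (SE) by the scanner output and 0.24 ± 0.22 (SE) by the table, and so turned sign, and its highest array was saline replicate 1 and its lowest rhTM replicate 2.

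**Figure D5:**
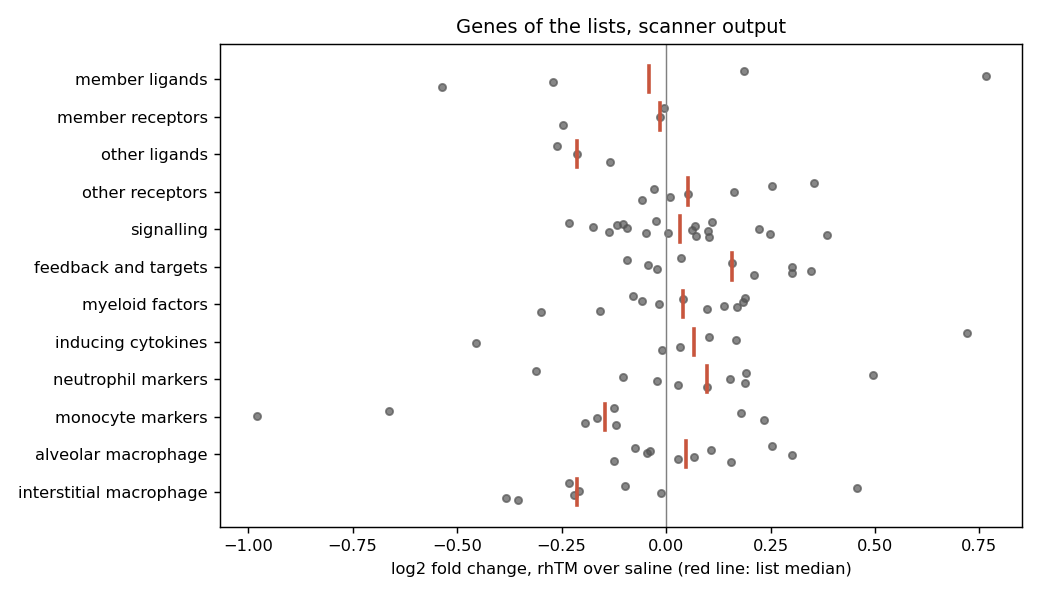
Log2 fold change of rhTM over saline by the scanner output for every tested gene (points) of the ligands and receptors, of the other pathway lists and of 4 leukocyte marker lists, with the list median (red line). Csf3 at 0.77 and Csf1 at -0.54 are the ends of the member ligands, and the monocyte markers reach from -0.98 (Cx3cr1) to 0.23 (Vcan).

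Markers of the cells that carry these receptors were set beside them. Of 9 neutrophil markers with a probe 6 were higher and 3 lower with rhTM by the scanner output (median log2 fold change 0.10), and their summed signal was 839 to 991 on the saline arrays and 841 to 1109 on the rhTM arrays. With the other assignment 7 were higher and 2 lower (median 0.20), with 2 higher without overlap (9.68% of all genes). The highest sum was that of rhTM replicate 1, on which Csf3 was also highest, and the same array had the highest sums of the platelet (27.0 against 10.0 to 14.5 on the saline arrays), endothelial (175 against 125 to 145), interstitial macrophage (132 against 100.5 to 102.7), erythroid (910 against 616 to 799) and alveolar macrophage (444 against 395 to 419) markers. Of 8 monocyte markers 2 were higher and 6 lower (median -0.15), with sums of 339 to 366 with saline and 321 to 337 with rhTM. Most of that sum came from 1 gene, Ly6c2, at 295 to 312 with saline and 263 to 287 with rhTM, and 2 of the 8 markers (Ly6c2 and Ccr2) were lower without overlap, where 2.57% of all genes were. By the table the sums overlapped, with 351 on an rhTM array and 337 on a saline array, and 0 of the 8 were free of overlap. The sum of the interstitial macrophage markers was 96.9 to 132 with rhTM, although of these 8 markers 1 was higher and 7 lower (median -0.21). The 1 higher marker was Lyve1, with a log2 fold change of 0.46. Its signal was 87.5 on rhTM replicate 1, against 41.9 to 49.9 on the saline arrays. Most of the sum of 132 on rhTM replicate 1 thus came from Lyve1. C1qa, C1qc, Folr2, Cd68 and Adgre1 each had their lowest signal on that array, whereas C1qb and Cd163 did not. The sum without Lyve1 was not calculated. In this list 3 markers were lower without overlap (2.57% of all genes). Under the other assignment 4 were higher and 4 lower with 0 free of overlap. Of 10 alveolar macrophage markers 6 were higher and 4 lower (median 0.05), and with the other assignment 3 were higher and 7 lower (median -0.09). Endothelial markers, from a known source of Csf1 and Csf3, were split at 4 higher and 4 lower (median -0.03), and with the other assignment 3 were higher and 5 lower (median -0.16), with 3 lower and 1 higher at an unadjusted p under 0.05 by limma (7.01% and 6.95% of all genes) and 2 below and 1 above without overlap (12% and 9.68%). Of 8 fibroblast markers 7 were higher (median 0.21), and with the other assignment 5 were (median 0.19). All defining markers of the neutrophil, monocyte, alveolar macrophage, interstitial macrophage, endothelial and fibroblast lists that had a matched probe were detected on all 6 arrays, and Ly6g had none. Of 4 mast cell and basophil markers, which stand beside Kit, 3 were higher (median 0.13), and with the other assignment 4 were (median 0.45). Of 5 club and ciliated markers 4 were higher (median 0.11), and with the other assignment 5 were (median 0.40). With that assignment 3 of the mast cell and basophil and 3 of the club and ciliated markers were higher at an unadjusted p under 0.05 by limma (6.95% of all genes), and 2 of each lay above without overlap (9.68%). By the same measures 2 neutrophil, 2 fibroblast and 2 erythroid markers were higher at an unadjusted p under 0.05 by limma. The 5 erythroid markers tested were higher under both assignments (medians 0.11 and 0.27). The part of these cell types in the values of Csf1, Csf3, Csf1r and Kit was not tested.

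For each of the 7 genes the tested genes with the most similar profile over the 6 arrays were sought, as the smallest root mean square difference of centred log2 values. For Csf1 the nearest was Cavin2, a component of caveolae (0.05), where Csf1 itself spread by 0.54 about its mean. For Csf2 they were R74862 (0.07) and Rem1 (0.10), both of low signal, and for Csf3 they were Glis3 (0.13) and Nwd2 (0.14). Cavin2 was 15.2 on rhTM replicate 1 and 27.9 to 45.2 on the other 5 arrays, the same low array as for Csf1. For Csf1r the nearest were Gm20257 (0.05) and Adgre1, which encodes the macrophage antigen F4/80 (0.05), and Adgre1 was also on the interstitial macrophage list. Tmed10 (0.02) and Lmo4 (0.03) were nearest to Il34, Mt3 and Arv1 (0.03 each) to Csf2ra, and Erf (0.01) and Cand1 (0.02) to Il3ra. Likeness over 6 arrays was taken as a description.

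The arrays lay on 2 slides, and the first held saline replicates 2 and 3 with rhTM replicates 1 and 2, the other saline replicate 1 with rhTM replicate 3 by the scanner output. Within each slide the log2 fold change was -0.55 and -0.51 for Csf1, -0.35 and -0.10 for Csf2, 0.79 and 0.72 for Csf3 and -0.18 and -0.38 for Csf1r. It was 0.24 and 0.08 for Il34, 0.08 and -0.21 for Csf2ra and 0.0087 and -0.03 for Il3ra, so that Csf2ra and Il3ra differed in sign between the slides and the other 5 genes did not. By the table the other slide held no saline array, so a within-slide difference there rests on rhTM replicate 1 as the single rhTM array.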

How the data were processed

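Lung RNA of 6 mice (3 saline-treated, 3 rhTM-treated, 1 array each) was measured on single-colour Agilent mouse arrays. The authors deposited processed signals, linear intensity values from which Feature Extraction had subtracted the background. The file headers name version 10.7.3.1 and the submitters' processing notes version 9.1. The value table that the authors deposited held the same intensity values averaged per probe, on a linear scale with no centring (column medians 77.5 to 90.9), with 2 arrays exchanged. RNA extraction is given as an RNeasy kit in the labels and as a simplyRNA kit in the methods, and the general methods name the control vehicle as PBS.

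Each array had 59305 spots. Control spots and 398 of 56605 probes whose spots were all flagged as outliers on some array were left out, spots of a probe were averaged, and log2 signal minus the 75th percentile of the array was analysed. Probes were named through RefSeq accessions (32994 matched, 22911 genes), kept when well above background on all 3 arrays of a group (36061), and reduced to the brightest per gene. Between 36243 and 40647 probes were well above background per array, no spot was saturated, and the number of arrays limits the precision.

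The groups were compared in limma 3.58.1 (R 4.3.3) across all 16370 genes with Benjamini-Hochberg adjustment at 0.05, and by exact permutation over arrays for single genes. The fit was tested on simulated data. The replicates are labelled as separate mice. Named genes were the 7 genes, all other ligands and receptors of the lists, the gene of largest difference in each further pathway list, the 2 nearest profiles per gene (1 of them is not reported here), and markers at the end of a list. Genes and lists were chosen with earlier results of these data known. Alternatives were other background corrections, scalings, filters, probe rules, blocks, the authors' table, arrays left out and the t-test of the methods.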

Additional observations from a re-analysis of the deposited data

How the results depend on the processing

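With 3 arrays per group, 2 of uncertain assignment and 1 that stands apart, the comparison can show differences only where they are large against this spread. Dim genes such as Il3 lie near the background. The count of genes past an adjusted p of 0.05 was 0 under the other background correction, scalings, filters, probe rules, the slide block, the replicate block and the t-test of the methods. With a slide block on the values of the authors' table the count was 432 of all genes, 1 of the 7 genes (Csf3) and 4 of the pathway lists (Pim1, Socs3, Stat3 and Tslp, of which Pim1 was named after its values were seen), a fit that sets rhTM replicate 1 alone against saline arrays. Leaving out 1 array at a time gave 0 to 561 over all genes, 0 for the 7 genes and 0 to 1 for the pathway lists, the 561 and the 1 (Cbl, named after its values were seen) being the table without rhTM replicate 1. At an unadjusted p under 0.05 the count of 306 became 197 with normexp correction, 488 with no filter, 1379 (3 of the 7 genes) without rhTM replicate 2 and 1222 (2 of the 7) without both exchanged arrays, and the 2279 of the table became 1145 to 4133 with single arrays left out and 4578 with the slide block. At the thresholds of the methods (a fold of 2 or 0.5 and p under 0.01) limma gave 6 genes, or 65 by the table, with 0 of the 7 genes in both, and the t-test of the methods 1. The 6 became 0 with normexp, 3 with the stricter filter, 37 with no filter, 87 (1 of the 7) without rhTM replicate 2 and 97 (1 of the 7) without both exchanged arrays. Leaving out any other single array gave 8 to 18. The 65 became 288 without rhTM replicate 1, 158 (2 of the 7) without its rhTM replicate 2 and 580 (3 of the 7) with the slide block. It also became 114 without its saline replicate 3, but 43 without its saline replicate 1, 37 without its saline replicate 2 and 33 without its rhTM replicate 3. Correlations of deviations from the group means were -0.30, 0.44 and -0.45 for same-numbered arrays, and -0.33 to 0.64 for differently numbered arrays. Deviations from a mean of 3 arrays are tied to each other, so these values cannot settle whether replicate numbers paired the mice. With the replicate number as a block 0 genes passed, and the fold changes are those without the block by construction. Signs turned in the following cases, and the cause was not tested. By the table the log2 fold change became -0.049 for Il34, 0.0070 for Il3, -0.0032 for Csf2rb2, -0.017 for Csf3r, 0.097 for Flt3 and 0.24 for Spi1, and with that slide block 0.054 for Il3 and -0.024 for Csf2rb2. By normexp it became 0.0018 for Il3ra and -0.025 for Csf2rb2, by quantile normalisation -0.024 for Csf2rb2 and -0.024 for Csf3r, and by the percentile of detected probes -0.015 for Csf2rb2. Without both exchanged arrays it became 0.051 for Flt3. Within slide 1 it became 0.085 for Csf2ra, 0.0087 for Il3ra and -0.026 for Csf2rb2, and within slide 2 0.099 for Csf2rb, -0.046 for Csf3r, 0.11 for Flt3 and -0.12 for Socs3. Over single arrays left out under both assignments it ran from -0.89 to 0.24 for Csf2, -0.19 to 0.30 for Il34, -0.16 to 0.087 for Csf2ra, -0.10 to 0.054 for Il3ra, -0.31 to 0.19 for Il3, -0.63 to 0.075 for Flt3l, -0.36 to 0.053 for Csf2rb, -0.054 to 0.070 for Csf2rb2, -0.072 to 0.11 for Csf3r, -0.16 to 0.24 for Flt3, -0.040 to 0.32 for Kit, -0.12 to 0.96 for Ptprz1, -0.35 to 0.59 for Stat3, -0.054 to 0.64 for Socs3 and -0.50 to 0.44 for Spi1.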
